A study of Mus musculus with 2 samples.

Results

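The 10 genes described here encode transporters that carry amino acids across the plasma membrane: Slc38a2, Slc38a3, Slc38a4, Slc7a1, Slc7a2, Slc7a5, Slc7a6, Slc7a8, Slc3a2 and Slc1a5. They were chosen by gene symbol, and all 10 were found among the 55536 annotated genes of the deposited gene tables. The samples were total RNA-seq libraries of the gastrocnemius, the large muscle of the calf, from 2 male B6CASTF1/J mice aged 36 days. B6CASTF1/J mice are the first-generation cross of a C57BL/6 and a CAST strain, and reads of the parental alleles are not separated. No treatment or mutation is labelled, so there was 1 group (n = 2) and no contrast between groups. The labels number the samples biological replicate 1 and replicate 2, as separate biosamples, although both carry the same donor entry. They were taken as 2 animals, which is an assumption, and the spread between them may be partly technical. Whole muscle also holds vessels, nerve, connective tissue and fat, and in bulk RNA fewer cells of a type and less RNA per cell cannot be told apart.

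Muscle is the main store of free glutamine and a major user of the branched-chain amino acids, and these transporters move amino acids between blood and fibre. Members of the Slc38 family bring small neutral amino acids into cells together with sodium, while Slc7a1 and Slc7a2 carry the cationic amino acids arginine, lysine and ornithine. Slc7a5, Slc7a6 and Slc7a8 are light chains that exchange amino acids across the membrane only when paired with the heavy chain encoded by Slc3a2, and Slc1a5 exchanges glutamine and other neutral amino acids in the presence of sodium. Leucine and arginine that enter the cell are sensed by the kinase complex mTORC1 at the lysosome, and several of these genes are known targets of the stress-responsive factor ATF4.

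Slc7a2 is the member whose transcripts differ in the coding region in a way that is known to matter for transport. Its transcripts hold either of 2 mutually exclusive coding exons on chromosome 8, and the choice of exon is known to set the affinity of the transporter for arginine. Both exons are shown because transcripts with the exon of 137 bases stood well above those with the exon of 140 bases. They are given 5′ to 3′ on the plus strand of mm10, as in the GENCODE M21 transcripts, with capitals for the bases that differ between them in a global alignment.
Slc7a2 exon of 140 bases: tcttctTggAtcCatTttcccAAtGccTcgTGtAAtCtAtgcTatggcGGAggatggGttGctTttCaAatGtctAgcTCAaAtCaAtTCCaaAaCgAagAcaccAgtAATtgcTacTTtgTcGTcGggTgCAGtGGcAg
Slc7a2 exon of 137 bases: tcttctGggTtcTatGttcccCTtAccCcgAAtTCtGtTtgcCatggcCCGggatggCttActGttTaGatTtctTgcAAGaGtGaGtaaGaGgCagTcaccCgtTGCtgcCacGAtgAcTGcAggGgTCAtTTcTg
The exon of 140 bases lies at chr8:40908056-40908195 and that of 137 bases at chr8:40908398-40908534. The alignment spans 140 columns, of which 84 (60.0%) are identical.

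Levels are given as TPM, transcript abundances that sum to a fixed total per library, which scale reads by transcript length and can therefore be compared between genes. Each is the mean ± SD over the 2 animals, beside the value and the deposited credibility interval of each library. The probability level of those intervals is not stated, and they cover read counting and read assignment but not the spread between animals. They need not be centred on the TPM or hold it. The fibre marker Acta1, for example, had 22668.6 TPM in replicate 1 with an interval of 22149.9 to 22246.3. In each library the 10 genes were also ranked among 22015 nuclear protein-coding genes.

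The sodium-coupled Slc38 genes were the most abundant of the 10. Slc38a4, which carries small neutral and some cationic amino acids and is imprinted in some mouse tissues, lies at chr15:96994820-97055956 on the minus strand. Its level was 85.4 TPM in replicate 1 (interval 79.7 to 87.4) and 87.8 TPM in replicate 2 (82.1 to 89.5), with a mean of 86.6 ± 1.74 TPM. The intervals overlapped, and the gene ranked 514 in replicate 1 and 508 in replicate 2. Slc38a2, the widely expressed alanine and glutamine transporter whose amount is known to rise when amino acids are scarce, is a neighbour at chr15:96687392-96699730. Slc38a2 stood at 57.3 TPM in replicate 1 (54.9 to 57.3) and 60.9 TPM in replicate 2 (58.5 to 60.9), a mean of 59.1 ± 2.60 TPM. Here the narrow intervals did not overlap although the values differed little. Slc38a3 (chr9:107650634-107669530, minus strand) encodes a transporter of glutamine, histidine and asparagine best known from liver, kidney and brain. Slc38a3 had 18.8 TPM in replicate 1 (18.1 to 21.5) and 24.6 TPM in replicate 2 (22.6 to 26.9), a mean of 21.7 ± 4.05 TPM, and its intervals did not overlap. The 3 genes summed to 161 TPM in replicate 1 and 173 TPM in replicate 2, which was 77.1% ± 2.35 of the TPM of the 10 genes.

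Of the cationic transporters, nearly all of the RNA came from Slc7a2. Slc7a2, at chr8:40862396-40922308 on the plus strand, had 12.0 TPM in replicate 1 (11.0 to 12.7) and 13.7 TPM in replicate 2 (12.6 to 14.5), a mean of 12.8 ± 1.20 TPM with overlapping intervals. Slc7a1, the general arginine transporter of most tissues, lies at chr5:148327410-148399904 on the minus strand. It had 1.53 TPM in replicate 1 (1.40 to 2.26) and 0.79 TPM in replicate 2 (0.77 to 1.33), a mean of 1.16 ± 0.523 TPM. Slc7a1 was the lowest of the 10 genes, and its intervals did not overlap. Slc7a2 exceeded Slc7a1 by 7.82 times in replicate 1 and 17.3 times in replicate 2. Both together summed to 13.5 TPM in replicate 1 and 14.5 TPM in replicate 2.

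Among the exchanger light chains Slc7a8 led. Slc7a8, which exchanges large and small neutral amino acids, lies at chr14:54722209-54781946 on the minus strand. It had 11.6 TPM in replicate 1 (10.8 to 12.1) and 9.49 TPM in replicate 2 (8.78 to 9.86), a mean of 10.6 ± 1.52 TPM, and its intervals did not overlap. Slc7a6, which exchanges cationic for neutral amino acids, lies at chr8:106168857-106198706 on the plus strand. Its level was 3.17 TPM in replicate 1 (2.89 to 4.77) and 2.39 TPM in replicate 2 (2.27 to 3.80), a mean of 2.78 ± 0.552 TPM. Slc7a5, the leucine exchanger of proliferating cells and the blood-brain barrier, lies at chr8:121881150-121907694 on the minus strand. Slc7a5 had 1.74 TPM in replicate 1 (1.53 to 3.18) and 0.87 TPM in replicate 2 (0.80 to 2.30), a mean of 1.31 ± 0.615 TPM. The intervals of Slc7a6 and of Slc7a5 overlapped between the animals. Slc7a8 made up 72.4% ± 2.90 of the summed TPM of the light chains, Slc7a6 18.9% ± 0.289 and Slc7a5 8.67% ± 2.61. Slc7a8 exceeded Slc7a5 by 6.69 times in replicate 1 and 10.9 times in replicate 2.

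In the gene table the heavy chain and the summed light chains stood at similar RNA levels. Slc3a2, the heavy chain, lies at chr19:8706882-8723369 on the minus strand and had 14.8 TPM in replicate 1 (14.3 to 18.8) and 12.1 TPM in replicate 2 (11.6 to 16.0), a mean of 13.5 ± 1.86 TPM. The light chains Slc7a5, Slc7a6 and Slc7a8 summed to 16.6 TPM in replicate 1 and 12.8 TPM in replicate 2, with other Slc7 genes left out of the sum. Heavy over summed light chains was therefore 0.892 in replicate 1 and 0.952 in replicate 2, a mean of 0.922 ± 0.0422. In the second transcript table, which was made by another route from the same reads, this ratio was 1.51 in replicate 1 and 1.04 in replicate 2, with 36.6 TPM of Slc3a2 in replicate 1 and 17.0 in replicate 2, so the level of the heavy chain is uncertain. Slc1a5 (chr7:16781340-16798274, plus strand) had 7.88 TPM in replicate 1 (7.42 to 9.99) and 7.52 TPM in replicate 2 (6.87 to 9.60), a mean of 7.70 ± 0.255 TPM. Its animals differed less than those of any other of the 10 genes in TPM. Relative to its level Slc38a4 differed less, at 0.972 times from replicate 2 to replicate 1, against 1.05 times for Slc1a5.

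**Figure D1:**
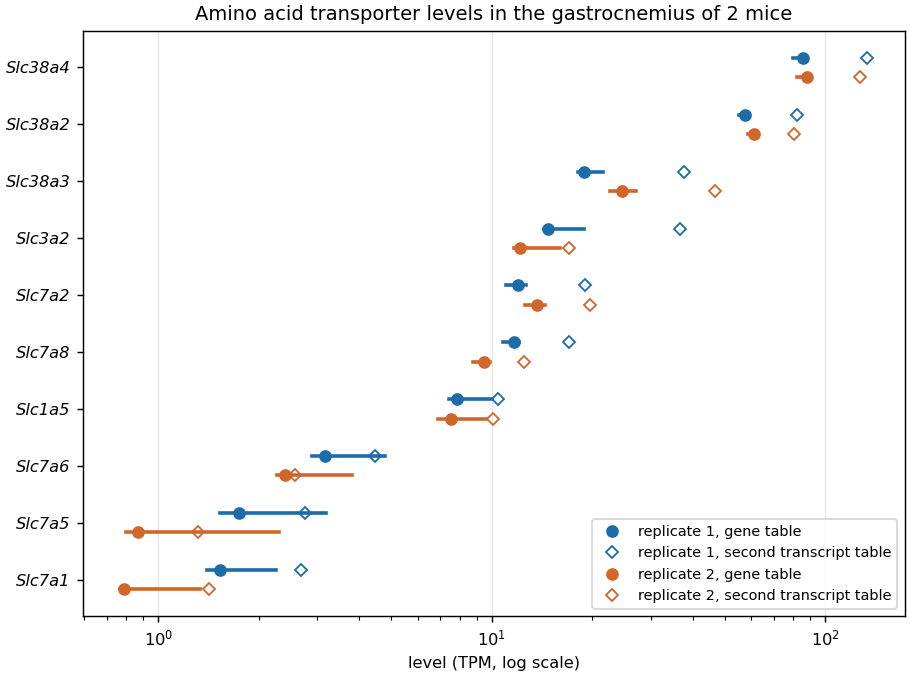
Level of each of the 10 genes on a log TPM axis, with filled circles for the gene table, bars for its deposited credibility intervals and open diamonds for gene sums of the second transcript table, in blue for replicate 1 and orange for replicate 2. The genes run from Slc38a4 at 86.6 TPM at the top to Slc7a1 at 1.16 TPM at the bottom, and the second table lies above the first in each gene.

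In order of mean level the genes ran Slc38a4, Slc38a2, Slc38a3, Slc3a2, Slc7a2, Slc7a8, Slc1a5, Slc7a6, Slc7a5 and Slc7a1. Neighbours in this order were taken as apart where the lower value of the higher gene was above the higher value of the lower gene. This held for 7 of the 9 neighbouring pairs. Slc3a2 and Slc7a2 differed by 1.05 times and did not stand apart beyond their spread, and neither did Slc7a5 and Slc7a1, which differed by 1.13 times. The widest steps were those between Slc1a5 and Slc7a6 (2.77 times) and between Slc38a2 and Slc38a3 (2.72 times). In the second table Slc7a1 preceded Slc7a5 and Slc7a6 no longer stood apart from Slc7a1, which left 6 pairs apart.

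The animals were compared by the log2 of (TPM + 0.1) in replicate 1 over that in replicate 2, a scale that understates ratios of low genes. With 1 animal on each side there is no p-value, and a gene was said to differ only with a mean of 50 or more expected counts, a ratio of 2-fold or more and deposited intervals that did not overlap. Of the 10 genes 0 passed, against 257 of 11632 genes with that count (2.21%), of which 205 (1.76% of the genes tested) were higher in replicate 1. Non-overlap of the intervals alone held for 4 of the 10 genes, Slc38a2, Slc38a3, Slc7a1 and Slc7a8, against 18.9% of all genes tested. The ratio was above 0 in 6 of the 10 genes, against 49.0% of all genes tested, and the members' median log2 ratio was 0.17 against -0.0049 over all genes. FPKM and TPM rescaled over nuclear protein-coding genes move all genes of a library alike, which put the median of all genes at 0.06 with either scaling and took Slc38a4 to 0.02 and 0.03, still below that median. In the second table both Slc38a4 and Slc38a2 changed sign.

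The ratios are given by family. The 3 Slc38 genes were slightly lower in replicate 1, at a log2 ratio of -0.04 for Slc38a4, -0.09 for Slc38a2 and -0.38 for Slc38a3, although the signs of Slc38a4 and Slc38a2 were not stable, as given above. The second table put the median of all genes at 0.11, and its ratios of 0.07 for Slc38a4 and 0.03 for Slc38a2 lay below that shift. The 3 light chains and their heavy chain were higher in replicate 1 under each of the scalings tried. The log2 ratio was 0.92 for Slc7a5, 0.39 for Slc7a6, 0.29 for Slc7a8 and 0.28 for Slc3a2. The cationic transporters went apart, with 0.87 for Slc7a1 and -0.19 for Slc7a2, and Slc1a5 was near even at 0.07. The low expression of Slc7a5 and Slc7a1 limits their precision: Slc7a5 rested on 170 expected counts in replicate 1 and 94 in replicate 2, and Slc7a1 on 287 in replicate 1 and 163 in replicate 2. With a pseudocount of 1 in place of 0.1 the log2 ratio was 0.55 for Slc7a5 and 0.50 for Slc7a1. Over all the scalings and pseudocounts tried, Slc7a5 reached up to 1.03 and Slc7a1 up to 0.98, both with rescaled TPM, and Slc7a5 stood at 1.02 in the second table, past the 2-fold line. The log2 ratio of Slc7a6 was 0.78 in the second table. Slc7a1 was the member that passed when the fold was relaxed to 1.5, as did 748 of 11632 genes.

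Markers of other cell types also moved between the animals, and their part in these ratios was not tested. The 8 fibroblast markers summed to 1777 TPM in replicate 1 and 927 in replicate 2, and all 8 were higher in replicate 1, with Col1a1, Col1a2 and Pi16 past the 3 criteria. The 8 Schwann cell markers, those of the glia of nerve, summed to 475 TPM in replicate 1 and 109 in replicate 2, with all 8 higher in replicate 1 and 7 of them past the criteria. Macrophage markers summed to 63.8 TPM in replicate 1 and 44.9 in replicate 2, with 7 of 7 tested higher in replicate 1. Satellite cell markers summed to 52.4 TPM in replicate 1 and 33.1 in replicate 2, with 3 of 5 tested higher. Most of that gap was in Sdc4, with 39.1 TPM in replicate 1 and 20.4 in replicate 2. Of the others, Chodl, Vcam1 and Calcr were higher in replicate 1 and Pax7, Myf5 and Cdh15 lower. Myf5 and Calcr were below the count minimum. In the second table the log2 ratio changed sign for Pax7 (-0.17 to 0.07) and Cdh15 (-0.04 to 0.08). Adipocyte markers went the other way, with 30.2 TPM in replicate 1 and 53.4 in replicate 2, 6 of 6 tested lower in replicate 1, and Cidec and Pck1 past the criteria. Endothelial markers summed to 76.8 TPM in replicate 1 and 85.6 in replicate 2, with 4 of 8 higher and 0 of 8 past the criteria. Smooth muscle and pericyte markers summed to 149 TPM in replicate 1 and 117 in replicate 2, with 4 of 7 higher and 0 of 7 past the criteria. No marker of these lists was at 0 in both animals.

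**Figure D2:**
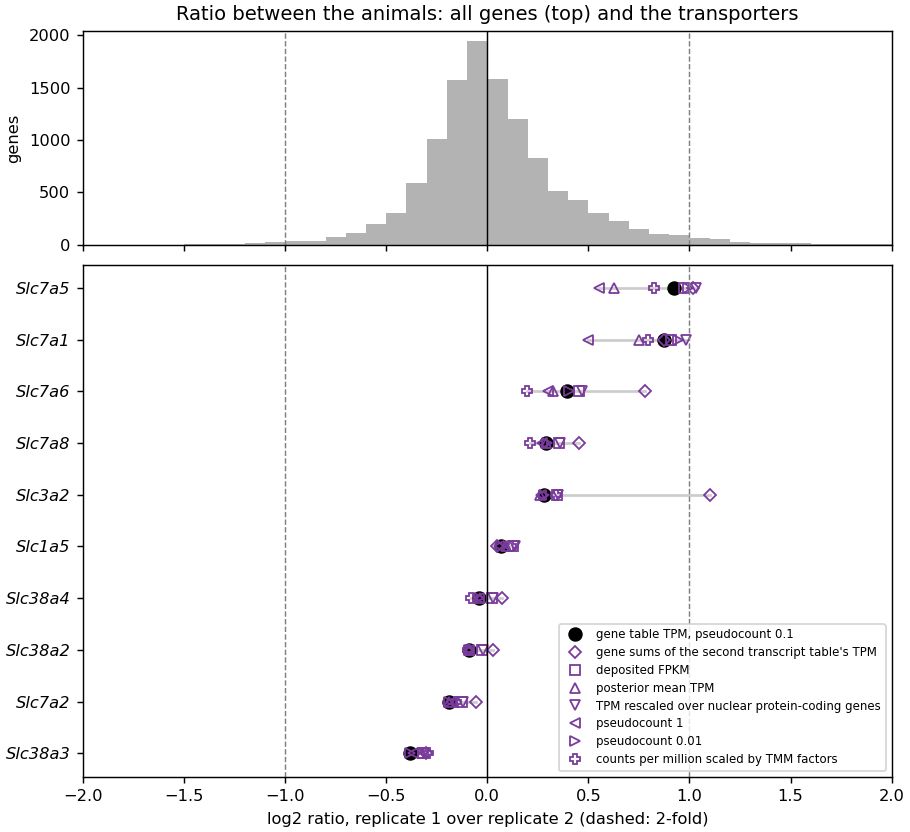
Upper panel: number of genes by log2 ratio, replicate 1 over replicate 2, for the genes with a mean expected count of at least 50 in bins of 0.1. Lower panel: the ratio of each of the 10 genes on the same axis, with a black point for gene table TPM and open symbols for other scalings and pseudocounts. Slc7a5 (0.92) and Slc7a1 (0.87) lie nearest the 2-fold line, and Slc3a2 moves from 0.28 to 1.10 in the second transcript table.

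Transcript shares were read from both transcript tables, which differ where transcripts overlap. The leading transcript was the same in both for 7 of the 10 genes, the exceptions being Slc38a3, Slc38a4 and Slc3a2. In Slc7a2, forms with the exon of 137 bases, Slc7a2-201 and Slc7a2-204, summed to 8.95 TPM in replicate 1 and 10.9 TPM in replicate 2. Those with the exon of 140 bases, Slc7a2-202 and Slc7a2-203, summed to 1.81 TPM in replicate 1 and 0.82 TPM in replicate 2. The exon of 137 bases was thus in 83.2% of the complete Slc7a2 RNA in replicate 1 and 93.0% in replicate 2, a mean of 88.1% ± 6.95. In the second table it was in 73.5% in replicate 1 and 82.2% in replicate 2, a mean of 77.9% ± 6.10, so the exon printed second above led in both tables and both animals. The tables disagreed on the form that carried the exon of 140 bases, which was Slc7a2-202 in the first table and Slc7a2-203 in the second. The remaining transcript, Slc7a2-205, is partial, holds neither exon and carried 12.2% ± 2.94 of the gene's TPM.

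In Slc38a4 the complete transcripts differ in where they start and in their length rather than in what they encode. The annotation gives start sites at 97055956, 97050087, 97031211, 97020322 and 97019951 on chromosome 15, of which the farthest is 36114 bases and the nearest 109 bases before the first coding base. The 4 complete forms share the same 15 coding exons and 1641 coding bases, and Slc38a4-204 is partial with 5 of them. Slc38a4-201 has 3932 bases in all and Slc38a4-205 has 3923, against 1908 for Slc38a4-202 and 1963 for Slc38a4-203. The complete forms thus differ at the 3′ end as well. Slc38a4-201, from the farthest start, carried 52.5% of the gene's TPM in replicate 1 and 48.6% in replicate 2 in the first table. In the second it carried 15.2% in replicate 1 and 0.322% in replicate 2, and Slc38a4-205, from the nearest start, carried 30.4% in replicate 1 and 44.6% in replicate 2. Slc38a4-204, the partial form that starts at 97050087, carried 30.2% in replicate 1 and 24.1% in replicate 2 in the first table, and 35.3% in replicate 1 and 30.1% in replicate 2 in the second. The level of Slc38a4 was high in both tables, but the start site and 3′ end of its RNA could not be settled from them.

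The tables also split the transcripts of Slc3a2 differently. Slc3a2-201 carried 55.8% in replicate 1 and 50.2% in replicate 2 in the first table. In the second it was near 0 in replicate 1 and 39.8% in replicate 2. Slc3a2-208, which was at 0 in both animals in the first table, had 14.1 TPM in replicate 1 and 2.69 in replicate 2 in the second, where Slc3a2-207 had 16.4 TPM in replicate 1 and 4.56 in replicate 2. Of the stretches of 100 bases in Slc3a2 transcripts, 44 of 3520 (1.25%) also occur in transcripts of other genes, whereas 0 did in the other 9 members. Its log2 ratio of 0.28 in the gene table stood at 1.10 in the second table, and that ratio is reported as uncertain.

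Some of the RNA of these genes was assigned to transcripts of types other than protein-coding, most of them with a retained intron. They are called noncoding here, although those annotated for nonsense-mediated decay have a coding region. Total RNA can also hold unspliced RNA, whose reads were not told apart from such forms. In Slc1a5 such forms held 31.0% of the TPM in replicate 1 and 36.0% in replicate 2, beside Slc1a5-201 as the sole coding form with 66.5% ± 3.56. In Slc38a3 they held 31.8% in replicate 1 and 29.1% in replicate 2, and the retained-intron form Slc38a3-211 alone had 22.1% ± 0.438, beside the coding Slc38a3-201 with 21.3% ± 1.88. In the second table Slc38a3-201 was ahead, with 31.8% ± 4.06 against 17.6% ± 0.950 for Slc38a3-211. The other coding forms of Slc38a3 past 10% in either table were Slc38a3-209, Slc38a3-202, Slc38a3-206 and Slc38a3-214. In the second table the noncoding share of Slc1a5 was 21.8% in replicate 1 and 40.7% in replicate 2, and that of Slc38a3 35.2% and 27.0% in the same order. In Slc7a6 noncoding forms held 10.4% in replicate 1 and 30.1% in replicate 2 in the first table. In the second they held 19.7% in replicate 1 and 49.6% in replicate 2. Of this, the nonsense-mediated decay form Slc7a6-203 held 0% in replicate 1 and 7.95% in replicate 2 in the first table. Its share in the second was 5.32% in replicate 1 and 18.7% in replicate 2. Slc7a6-201 led with 52.7% ± 2.27. Slc38a2-201, Slc7a5-201, Slc7a8-201 and Slc7a1-201 carried 96.8% ± 0.941, 94.5% ± 7.72, 92.5% ± 6.83 and 83.8% ± 6.83 of their genes' TPM. The other forms that reached 10% in either table were Slc7a6-205 (27.1% ± 11.7 in the first table), Slc7a6-207 (16.3% ± 8.32) and Slc7a1-202 (10.8% ± 8.05), and, in the second table, Slc7a5-202 (13.5% ± 5.43), Slc7a1-203 (13.4% ± 1.42), Slc7a6-203 (12.0% ± 9.48), Slc3a2-202 (11.1% ± 5.41) and Slc7a1-205 (10.7% ± 2.07). In Slc38a4, Slc38a4-202 held 20.5% ± 5.15 in the first table and Slc38a4-203 held 17.5% ± 9.49 in the second. Transcripts of Slc38a4 and Slc7a2 are all annotated as coding.

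Retained-intron forms of 2 genes had intervals that did not overlap between the animals. Slc7a8-202 had 1.43 TPM in replicate 1 (1.02 to 1.87) and 0.25 TPM in replicate 2 (0.11 to 0.47), which was 12.3% of the gene in replicate 1 and 2.63% in replicate 2. The second table gave 2.30 TPM in replicate 1 and 0.39 TPM in replicate 2. The coding Slc7a8-201 had 10.2 TPM in replicate 1 (9.42 to 10.6) and 9.24 TPM in replicate 2 (8.52 to 9.58), and here the intervals overlapped. Slc38a2-202 had 2.20 TPM in replicate 1 (1.93 to 2.38) and 1.53 TPM in replicate 2 (1.32 to 1.70), a difference of less than 2-fold. Both forms were picked after their values were seen, and intervals did not overlap in 12.8% of 1284 retained-intron transcripts tested, whose median log2 ratio was -0.02.

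**Figure D3:**
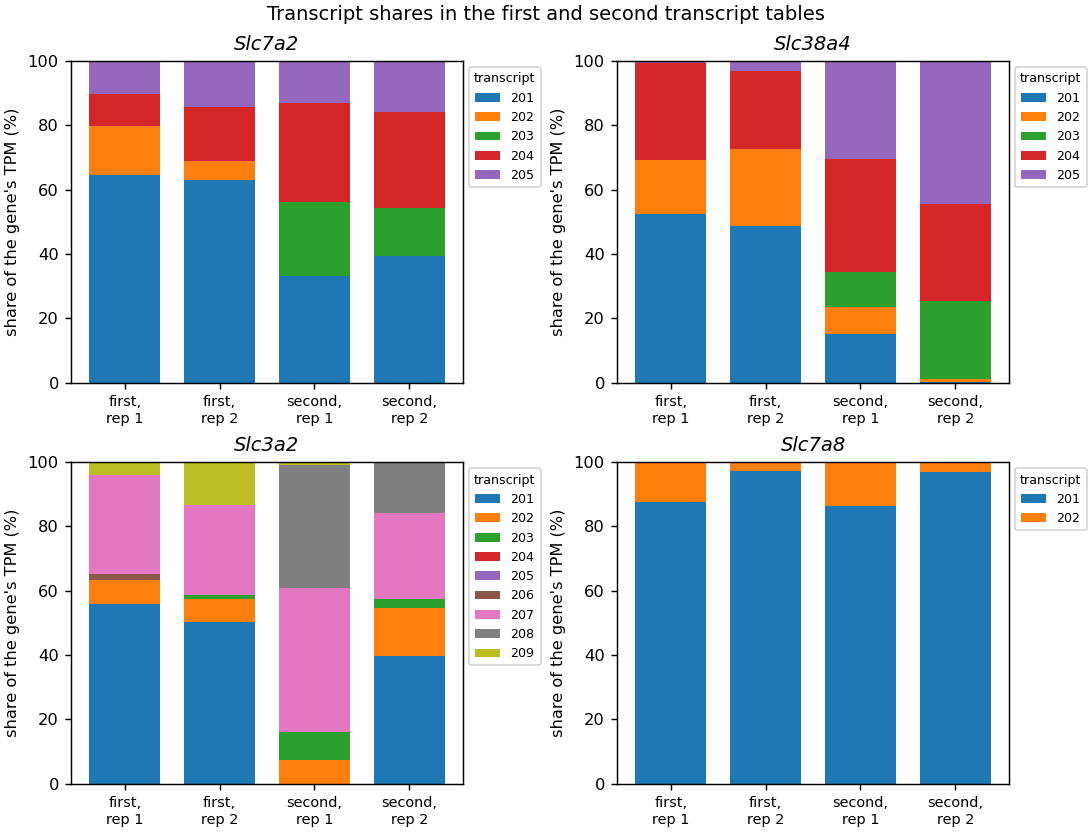
Share of each gene's TPM by transcript for Slc7a2, Slc38a4, Slc3a2 and Slc7a8, as stacked bars for replicates 1 and 2 in the first and then the second transcript table. Slc7a2-201 is 64.6% and 62.9% in the first table, Slc38a4 and Slc3a2 change make-up between the tables, and Slc7a8-202 is larger in replicate 1 in both.

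Beside the other amino acid transporters of the plasma membrane the 10 genes held most of the RNA. They summed to 214 TPM in replicate 1 and 220.2 in replicate 2. The 33 others on the list summed to 54.1 TPM in replicate 1 and 62.9 in replicate 2. The 10 therefore made up 78.8% ± 1.45 of that RNA. This share depends on the lists, which were chosen with earlier results of these data known. Of the 33 others, 5 reached 1 TPM in both animals and 8 had no read in either in the gene table. Among the 8, picked after their values were seen, were Slc38a5, the relative of Slc38a3, and Slc7a9 and Slc7a13, light chains of the kidney. Those named were also at 0 in the second table, where others of the 8 reached up to 0.085 TPM. A count of 0 allows up to 3 reads, or 0.0812 CPM (reads scaled to a common library total) in replicate 1 and 0.0774 in replicate 2. The highest of the others was Slc6a6, the taurine transporter, with 20.4 TPM in replicate 1 and 28.4 TPM in replicate 2 (log2 ratio -0.47). Slc16a10, which carries aromatic amino acids, had 15.4 TPM in replicate 1 and 16.4 in replicate 2. Slc43a2, which carries large neutral amino acids without exchange, had 6.69 TPM in replicate 1 and 7.15 in replicate 2. Of the 11 with enough reads, replicate 1 was above replicate 2 in 6 and below it in 5, the median log2 ratio was 0.28, and 1 passed the 3 criteria. That gene was Slc38a1, a relative of Slc38a2 on the same stretch of chromosome 15 (chr15:96571418-96642913), with 0.71 TPM in replicate 1 (0.62 to 1.17) and 0.28 TPM in replicate 2 (0.28 to 0.60) from 117 and 63 expected counts.

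**Figure D4:**
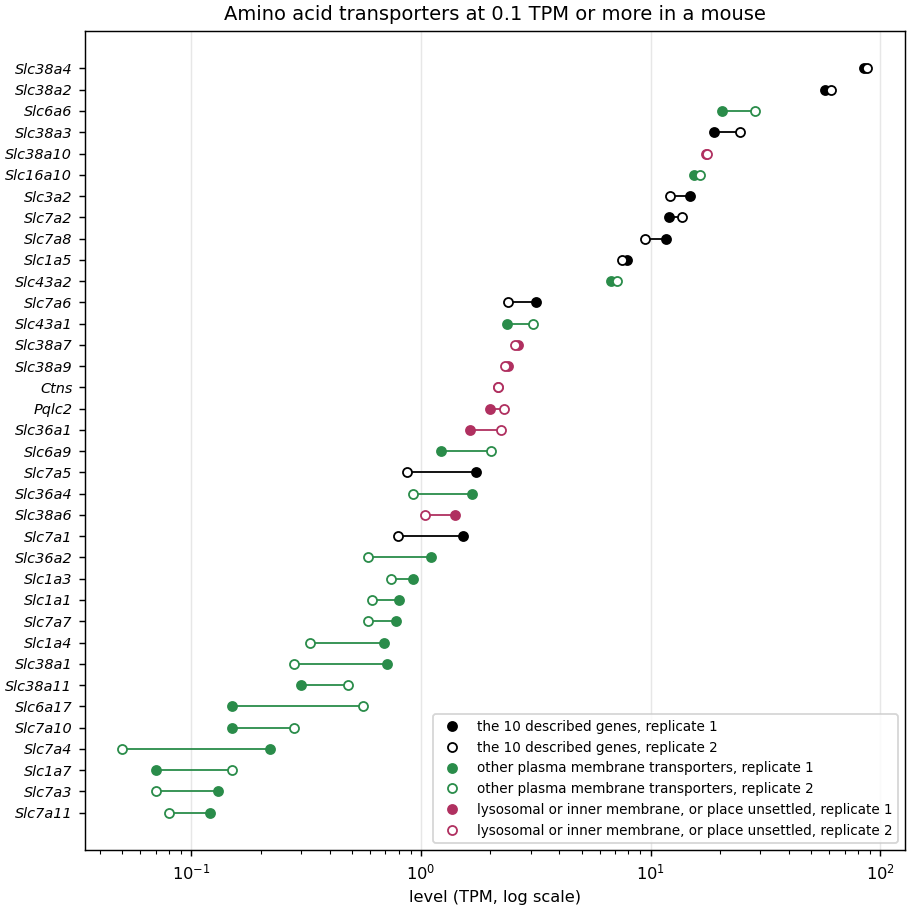
Level in replicate 1 (filled) and replicate 2 (open) of amino acid transporters that reached 0.1 TPM in an animal, on a log TPM axis, in black for the 10 genes, green for other plasma membrane transporters and red for those of the lysosome, of other inner membranes or of unsettled place. Slc38a4 and Slc38a2 head the plot and Slc6a6 (20.4 and 28.4 TPM) is the highest transporter outside the 10.

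Transporters of the lysosome, other inner membranes or an unsettled place were all expressed, and their sum was close between the animals. All 7 that were found reached 1 TPM in both, summing to 29.9 ± 0.410 TPM, and 0 of 7 passed the criteria. Log2 ratios ran from -0.42 for Slc36a1 to 0.40 for Slc38a6, both picked after their values were seen. Slc38a6 had 1.40 TPM in replicate 1 and 1.04 in replicate 2. In the second table it had 13.2 TPM in replicate 1 and 12.5 in replicate 2, so its level is uncertain. The highest was Slc38a10 with 17.4 TPM in replicate 1 and 17.6 TPM in replicate 2. Slc38a7, a lysosomal glutamine transporter, had 2.64 TPM in replicate 1 and 2.56 in replicate 2, and Slc38a9, the lysosomal arginine sensor, had 2.39 TPM in replicate 1 and 2.33 in replicate 2.

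The genes that sense amino acids were largely present, and those of mTORC1 and its sensors moved little. Of 34 genes of mTORC1 and its amino acid sensors, 32 reached 1 TPM in both animals. Of the 33 tested, replicate 1 was above replicate 2 in 12 and below it in 21, the median log2 ratio was -0.07, and 0 passed. Rragd, a GTPase that recruits mTORC1 to the lysosome, had 59.4 TPM in replicate 1 and 67.1 TPM in replicate 2. Lamtor1, of the complex that anchors it there, had 38.7 TPM in replicate 1 and 40.4 in replicate 2, and Lamtor2, of the same complex, had 27.3 TPM in replicate 1 and 28.6 in replicate 2. Of 24 genes of the ATF4 amino acid response, 19 reached 1 TPM in both animals, and of 21 tested replicate 1 was above replicate 2 in 14 and below it in 7, with a median log2 ratio of 0.19. Nupr1, a stress-induced nuclear protein, was the 1 that passed, with 11.7 TPM in replicate 1 and 4.81 TPM in replicate 2 (log2 ratio 1.27). Intervals did not overlap in 5 of the 21, against 18.9% of all genes tested. Asns, picked after its values were seen, had the largest ratio of the 21 (log2 ratio 1.59). It had 2.19 TPM in replicate 1 and 0.66 TPM in replicate 2, but its intervals overlapped. Atf4 itself had 46.8 TPM in replicate 1 and 47.8 in replicate 2. Cebpb, a related transcription factor, had 51.4 TPM in replicate 1 and 46.8 in replicate 2, and Atf5 had 25.1 TPM in replicate 1 and 22.4 in replicate 2.

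The most abundant enzymes that use the transported amino acids stood above the transporters. Glul, which makes glutamine, had 164 TPM in replicate 1 and 143 TPM in replicate 2. Got2, the mitochondrial aspartate transaminase, had 127 TPM in replicate 1 and 166 in replicate 2, and Gpt2, that of alanine, had 121 TPM in replicate 1 and 128 in replicate 2. Of 19 such genes 14 were tested, of which replicate 1 was above replicate 2 in 6 and below it in 8, with a median log2 ratio of -0.06. Intervals did not overlap in 8 of the 14, in either direction, against 18.9% of all genes tested. Gatm, which takes arginine into creatine synthesis, was the 1 that passed, with 8.55 TPM in replicate 1 and 3.68 TPM in replicate 2 (log2 ratio 1.19). Arg2, a mitochondrial arginase picked after its values were seen, had no read in either animal.

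The libraries held 36952277 expected counts in replicate 1 and 38754338 in replicate 2, and 11445 and 11243 genes reached 1 TPM. They differed beyond sampling noise (chi-square of 44.3 per degree of freedom over 11632 genes), and 97.2% of those genes lay within 2-fold. Fibre markers showed skeletal muscle, with all 10 detected and sums of 98438 TPM in replicate 1 and 104289 in replicate 2. They do not tell the gastrocnemius from other muscles. The 5 liver and kidney markers had no read in the gene table and at most 0.056 TPM in the second transcript table. Lymphocyte markers summed to 0.63 TPM in replicate 1 and 0.73 TPM in replicate 2, with Cd3e, Cd3g and Nkg7 at 0, and red cell markers to 355 TPM in replicate 1 and 302 in replicate 2. An antisense gene with exons over those of Slc7a2, Gm26584, had 0 TPM in replicate 1 and 0.02 TPM in replicate 2. Gm20388, which spans Slc7a5 on the other strand without exon overlap, had 2.17 TPM in replicate 1 and 3.17 in replicate 2. Whether strand was used in counting is not stated, so reads of overlapping genes may be uncertain.

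Promoter windows of 300 bases around a start from RefSeq (GRCm38.p6) were at hand for 6 of the 10 genes with 10 windows. They were searched on both strands for the amino acid response element core TGATGNAAN and for the E-box CACGTG, neither of which holds the other. Neither was in any of the 10 windows, against 3.95% and 7.15% of 32851 windows in the table. This says only that those letters are not in these windows. Slc38a3, Slc7a2, Slc7a5 and Slc1a5 had no window.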

How the data were processed

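Total RNA libraries of 2 animals were read from a gene table and 2 transcript tables each, on mm10 with GENCODE M21 per the deposited notes. Not given in the sources used here are the aligner, the quantifiers and their versions. The authors deposited expected counts (estimated reads), TPM (scaled by length over all listed features), FPKM (scaled by library total), the percent of each gene in each transcript (recomputed here from TPM) and credibility bounds. Length minus effective length is that of a read of 100 bases in the gene and first transcript tables, per the file headers and values, and had a median of 335 and 340 bases in the second. Nothing was pooled.

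Ratios used a pseudocount of 0.1 and all 55536 genes; the criteria were a mean expected count of 50, a ratio of 2-fold and deposited intervals that do not overlap. With 1 group of 2 animals no p-value was computed. TMM factors (edgeR 4.0.16, R 4.3.3) served as an alternative scaling. Other steps used pandas 2.3.3 and numpy 2.4.6. Only the ratio between the animals and the criteria for a difference were tested on simulated data. Counting floors and intervals cover counting error only. The members and the 21 gene lists (209 of 213 symbols found) were chosen with earlier results of these data known. Of the symbols not found, Slc66a1, Gatsl2 and Gatsl3 are synonyms of listed genes. Samtor was not found under that symbol and is missing from the mTORC1 list. Named genes were all members and, of each other list, the 3 highest by mean TPM and each gene past the criteria; transcripts were named from a share of 10% in either table. Slc38a5, Slc7a9, Slc7a13, Arg2, Asns, Slc36a1, Slc38a6, Pax7, Myf5, Vcam1, Calcr, Slc7a8-202 and Slc38a2-202 fall outside this rule and were picked after their values were seen. Comparison of protein sequences was not run.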

Additional observations from a re-analysis of the deposited data

How the results depend on the processing

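With 1 group of 2 animals, precision rests on 2 libraries, and the SD covers only their spread. Scaling moved levels: the median level of the 10 genes was 11.7 TPM, 17.1 in the second transcript table, 9.78 as FPKM, 28.4 rescaled over nuclear protein-coding genes and 10.8 to 11.8 without either replicate. The summed level was 217 TPM, 332 in the second table, 182 as FPKM and 527 rescaled. Heavy over light chains was 0.922, 1.27 in the second table and 0.972 with the posterior mean. The median share of the leading transcript was 65.1% and 57.9% in the second table; the exon of 137 bases of Slc7a2 was in 88.1% and 77.9%, an alternative chosen after seeing the data. At 1.5-fold 1 member passed in place of 0, as did 6.43% of all genes. The log2 ratio changed sign in the second table for Slc38a2 (0.028) and Slc38a4 (0.075), and for Slc38a4 with FPKM (0.023) and rescaled TPM (0.028). FPKM and rescaling shift all genes alike, and the sign change is that shift. For the second table, which also put the median of all genes at 0.11, the cause was not tested. The members' median log2 ratio stayed between 0.16 and 0.26. Without replicate 1, Slc7a2 preceded Slc3a2. No paired analysis was possible because the labels give 1 group.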
